A study of Saccharomyces cerevisiae with 91 samples.

Results

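Isolated nucleosome-depleted regions (NDRs) of budding yeast were described with Micro-C, an assay that ligates neighbouring nucleosomes to each other and counts the ligated read pairs. The deposited table lists 6719 NDRs on 16 chromosomes, each with the number of read pairs that span it. An NDR was taken as isolated when no other listed NDR lay within 2500 bp on either side on its chromosome, and the first and last NDR of each chromosome were left out. This rule used positions alone and chose 371 NDRs, which were set against the other 6348. Of the others, 2178 had such a gap on 1 side only, 4138 had neighbours on both sides, and 32 were first or last.

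An NDR is a stretch of chromatin kept free of nucleosomes, most often in a promoter just upstream of the first nucleosome of a gene, where general regulatory factors, remodellers such as RSC and the transcription machinery bind. In Micro-C maps of yeast, NDRs often coincide with boundaries between short contact domains that hold one or a few genes. A read pair that spans an NDR joins a nucleosome on one side to a nucleosome on the other, so the count per NDR measures contacts across it. Micrococcal nuclease (MNase) cuts the linker DNA before ligation, and crosslinking with formaldehyde holds neighbouring nucleosomes together.

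All samples were of Saccharomyces cerevisiae grown in YPD medium. The groups with replicates in the NDR table were BY4741 cells given 1.5 mM diamide, a thiol oxidant, for 30 min (2 replicates), BY4741 cells given 3 ug/mL thiolutin, a transcription inhibitor, for 45 min (2), and strains labelled med1d (3), rtt109d (3), ssu72-2 (3), H4d4-14 (2), H4R23A (2), rnh201d (2), rpd3d (2) and top1d (2). A name ending in d marks a gene deletion, H4d4-14 and H4R23A carry altered histone H4, and ssu72-2 is a temperature-sensitive allele grown at 32 °C. The reference for all of these was untreated BY4741 at 30 °C, called WT_30C here (16 replicates). Groups with 1 replicate each were BY4741 at 32 °C, W303, the H4-WT strain with H3 and H4 on a plasmid, H4K16Q, H4Q93E, and, after 90 min at 37 °C, BY4741 and the alleles rgr1-100 (rgr1-97 in its strain label), rsc8-21, scc2-4 and sth1-2. Libraries without crosslinking, without ligation and with graded MNase were made from wild type too. Separate cultures are not stated in the labels, so the spread behind each p-value is that between samples and could be technical only.

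NDR-spanning pairs per WT_30C replicate ran from 105690 to 1304896. Levels are given as CPM, in which each count is divided by the TMM-scaled number of spanning pairs in its library and multiplied by 1000000. WT_30C replicate 17 (146987 pairs) stood apart from the other wild-type replicates. In the pooled gene table, the signal of the deleted gene relative to wild type was 6.69% for MED1 in med1d, 0.923% for RTT109 in rtt109d and 4.99% for RNH201 in rnh201d. It was 89.2% for RPD3 in the libraries labelled rpd3d and 52.5% for TOP1 in those labelled top1d, which goes against both labels. The chromosomal H4 genes HHF1 and HHF2 stood at 14.6% and 15.3% in H4d4-14 and at 1.38% and 4.37% in H4R23A. The H4 alleles of these strains are plasmid-borne, as in H4-WT, but both were compared with BY4741. Their H4 allele and their strain background therefore cannot be told apart in these comparisons.

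Isolated NDRs were promoters more often than the other NDRs. With a window from 50 bp before to 500 bp after the NDR in the gene's direction, a start codon was found at 265 of 371 isolated NDRs (71.4%, 95% Wilson interval 66.6 to 75.8), against 3321 of 6348 others (52.3%, 51.1 to 53.5). Such intervals cover counting error only, and neighbouring NDRs are not independent. Start codons of 2 genes were assigned to 82 isolated NDRs (22.1%, 18.2 to 26.6) and to 790 others (12.4%, 11.7 to 13.3). Divergent gene pairs flanked 119 isolated NDRs (32.1%) and 1486 others (23.4%), and tandem genes flanked 173 (46.6%) and 2269 (35.7%). Convergent genes flanked 29 isolated NDRs (7.82%) and 675 others (10.6%). Positions inside a gene were rarer, at 50 isolated NDRs (13.5%, 10.4 to 17.3) against 1897 others (29.9%, 28.8 to 31.0). A tRNA gene lay within 500 bp of 15 isolated NDRs (4.04%) and 166 others (2.61%).

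The genes that start at isolated NDRs were longer. The longest gene assigned to an NDR had a median length of 1725 bp over the 265 isolated NDRs with one. Over the 3321 others it was 1377 bp. This length was not particular to isolated NDRs, as the median was 1798 bp at other NDRs with the nearer neighbour at 2000 to 2500 bp. Between the 2 neighbours of an isolated NDR lay a median of 3 start codons, against 2 for the others, over an interval whose median length was 7094 bp for isolated NDRs and 3088 bp for the others. The nearer neighbour of an isolated NDR was at a median of 2965 bp, against 937 bp for the others, a difference that the rule itself sets. The isolated NDRs were spread over all chromosomes, from 1.38% of the NDRs listed on chromosome XII (11 of 800) to 18.0% of those on chromosome I (18 of 100). Isolated NDRs were the direct neighbours of other isolated NDRs in 158 cases, and 5 runs of 4 were the longest. The rule itself favours this, as a direct neighbour of an isolated NDR already has a gap over 2500 bp on 1 side.

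The 8 most isolated NDRs were of mixed kind. The farthest from any neighbour, at position 599275 of chromosome XIII (all positions are in sacCer3), had gaps of 6425 and 6626 bp and lies before the start of CEP3, which encodes a kinetochore protein. It had no joint boundary within 200 bp, the nearest being 1990 bp away. The next, at 499175 of chromosome X, lies inside RAD26, a transcription-coupled repair gene, and one at 895905 of chromosome IV lies inside ADR1, a transcription factor gene. NDRs at 584170 of chromosome XV before SIA1 and at 302989 of chromosome X between JEM1 and the cohesin gene SMC3 had a boundary at 9 and 10 bp. Those at 76711 of chromosome XIV (MRX6 and MON2) and 432088 of chromosome XII (RMP1 and ACF2) had none within 3826 and 4911 bp. The NDR at 856787 of chromosome XVI, nearest to the Ty1 retrotransposon frame YPR158C-D, had 416 ± 201 CPM in WT_30C (SD, n = 16), while the other 7 averaged between 87.4 and 143.7 CPM.

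Just inside the distance limit were NDRs before CHP1 (nearer neighbour at 2502 bp), between ESC2 and TFC6 (2505 bp) and before MRS1 (2505 bp), with wild-type means of 85.1, 80.0 and 138.3 CPM. Just outside it were NDRs between SHS1 and GCS1 (2499 bp), before CHS5 (2497 bp) and inside FIG4 (2497 bp), with 91.9, 77.5 and 94.8 CPM. The 3 on the inner side and 2 of the 3 on the outer side had a joint boundary within 200 bp.

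Contacts across isolated NDRs were slightly more frequent than across other NDRs in wild type. The median level over isolated NDRs was 92.8 ± 6.84 CPM in WT_30C, against 84.8 ± 3.03 CPM over the others (SD, n = 16). The log2 ratio of the 2 medians averaged 0.13 ± 0.08, a factor of 1.09, and was above 0 in 15 of 16 replicates. The exception was WT_30C replicate 17, with a median of 69.0 CPM over isolated and 77.7 CPM over other NDRs, a log2 ratio of -0.17. Without it the ratio was 0.15 ± 0.03. The level was not particular to isolated NDRs. With the nearer neighbour at up to 500 bp the median was 79.6 ± 1.78 CPM, and at 2000 to 2500 bp, still not isolated, 88.5 ± 4.62 CPM. Isolated NDRs had 92.9 ± 6.85 CPM at 2500 to 3000 bp, 91.4 ± 5.23 CPM at 3000 to 4000 bp and 101.0 ± 6.18 CPM beyond (n = 30). The excess over all other NDRs was seen within each kind of place. Isolated NDRs between divergent genes had a median of 85.5 ± 5.85 CPM against 73.8 ± 2.15 CPM for others of that kind. Between tandem genes the medians were 90.0 ± 6.37 and 78.3 ± 2.90 CPM, between convergent genes 101.7 ± 6.16 and 87.8 ± 2.96 CPM, and inside genes 121.8 ± 14.7 and 104.8 ± 4.43 CPM.

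**Figure D1:**
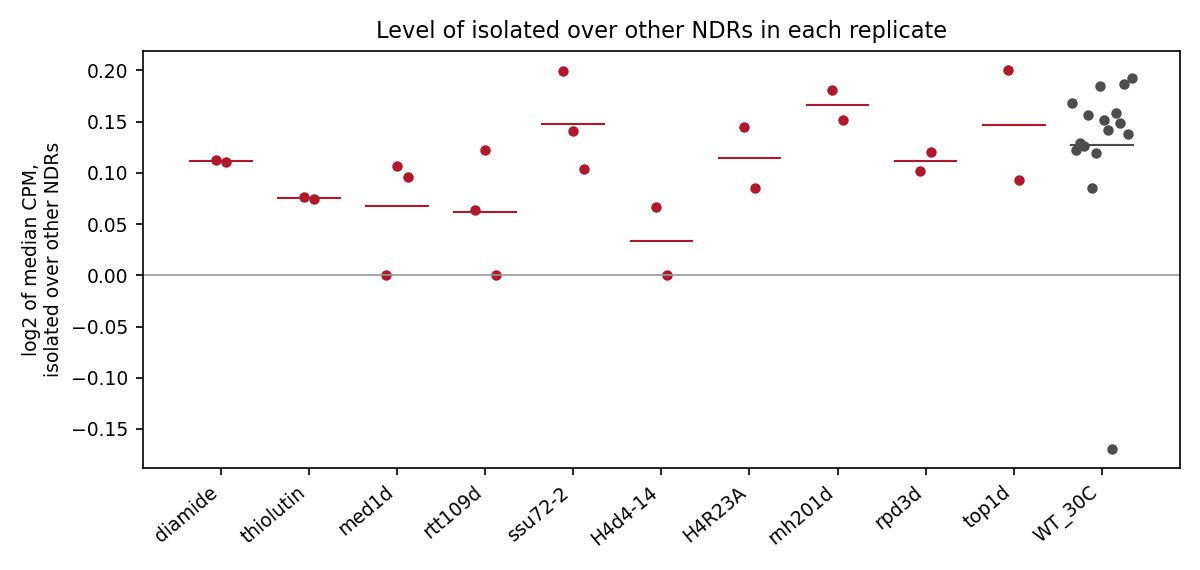
Each point is 1 replicate, placed by the log2 ratio of the median CPM of 371 isolated NDRs over that of 6348 other NDRs (vertical axis), by group, with lines at group means. Of the 16 WT_30C replicates 15 lie above 0, and the lone one at -0.17 is replicate 17.

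In the treated and mutant libraries the ratio was above 0 in 20 of 23 replicates and exactly 0 in the other 3. Group means were 0.11 in diamide, 0.08 in thiolutin, 0.07 in med1d, 0.06 in rtt109d, 0.15 in ssu72-2, 0.03 in H4d4-14, 0.11 in H4R23A, 0.17 in rnh201d, and 0.11 and 0.15 in the libraries labelled rpd3d and top1d. The wild-type replicates other than replicate 17 ranged from 0.08 to 0.19, and the means of thiolutin, med1d, rtt109d and H4d4-14 lay below that range. With replicate 17, at -0.17, no mean lay below it. Single replicates of med1d (0.11 and 0.10 in replicates 2 and 3) and of rtt109d (0.12 in replicate 3) lay within 0.08 to 0.19. These differences were not tested. In the groups without replicates the ratio was 0.16 in W303, 0.16 in BY4741 at 32 °C, 0.12 in BY4741 at 37 °C and 0.06 in sth1-2 at 37 °C. Shallow libraries have medians of few reads, which sets coarse steps in this ratio.

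Single isolated NDRs covered a wide range of levels. The quartiles of the 371 wild-type means were 74.4 and 118.6 CPM, against 64.3 and 113.5 CPM for the others. The lowest was the NDR at 606032 of chromosome II before RPL21A, a ribosomal protein gene, with a lowest value of 0, a median of 26.5 and a highest of 41.7 CPM over the 16 replicates. The second lowest, at 920053 of chromosome VII, is nearest to another ribosomal protein gene, RPS0A (0, 32.3 and 55.4 CPM). NDRs before VOA1, between KTR1 and NUP1, and between ASG1 and FKH1 followed, with means of 37.2, 37.6 and 37.7 CPM. The third cytosolic ribosomal protein gene next to an isolated NDR, RPS4B, was singled out after its value was seen and had 54.4 ± 12.8 CPM (SD, n = 16).

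The highest levels were in repeated DNA. At 463647 and 454510 of chromosome XII, within the ribosomal DNA array next to the frames YLR154C-G and TAR1, WT_30C replicates ranged from 22780 to 84250 CPM (median 45380) and from 20890 to 76510 CPM (median 40320). These 2 NDRs took 5.52 to 13.2% of all NDR-spanning pairs of a wild-type replicate. The next 3 lie inside YHR214C-B (908 ± 402 CPM), YMR050C (451 ± 103 CPM) and YER138C (417 ± 120 CPM), which are Ty1 retrotransposon frames (SD, n = 16). Such sequences occur in many near-identical copies, so the reads assigned to each are uncertain. In all, 28 isolated NDRs and 470 others had means above 200 CPM.

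Isolated NDRs lay near contact-domain boundaries more often than the other NDRs. In the joint list of 3061 boundaries, called by the authors on wild type, a boundary lay within 200 bp of 225 of 371 isolated NDRs (60.6%, 95% Wilson interval 55.6 to 65.5). Among the others this held for 2120 of 6348 (33.4%, 32.2 to 34.6). NDRs with a gap on 1 side only were between, at 952 of 2178 (43.7%, 41.6 to 45.8), and those with neighbours on both sides were lowest, at 1168 of 4138 (28.2%, 26.9 to 29.6). Where a boundary lay within 200 bp, its median distance was 19 bp for isolated NDRs and 25 bp for the others. Seen from the boundaries, 2325 of 3061 had their nearest NDR within 200 bp, and at 225 of these it was an isolated one.

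The share of NDRs at a boundary was higher with a more distant nearer neighbour up to about 3000 bp. It was 23.4% with the nearer neighbour at up to 500 bp, 25.1% at 500 to 1000 bp, 37.6% at 1000 to 1500 bp, 50.4% at 1500 to 2000 bp and 54.1% at 2000 to 2500 bp. Isolated NDRs with a neighbour at 2500 to 3000 bp reached 63.1% (n = 198), those at 3000 to 4000 bp 58.7% (n = 143) and those beyond 4000 bp 53.3% (n = 30, interval 36.1 to 69.8). These last 3 intervals overlap each other. Boundaries of the joint list were at least 760 bp apart, so that 2 NDRs closer than this cannot each have a boundary at their own position. The part of this spacing in the shares was not tested. In the separate lists of 4 wild-type replicates, where boundaries could be 208 bp apart, the share at 200 bp was 43.9 to 50.7% for isolated NDRs and 32.4 to 33.0% for the others. A boundary in all 4 lists was found at 71 isolated NDRs (19.1%, 15.5 to 23.5) and 718 others (11.3%, 10.6 to 12.1).

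**Figure D2:**
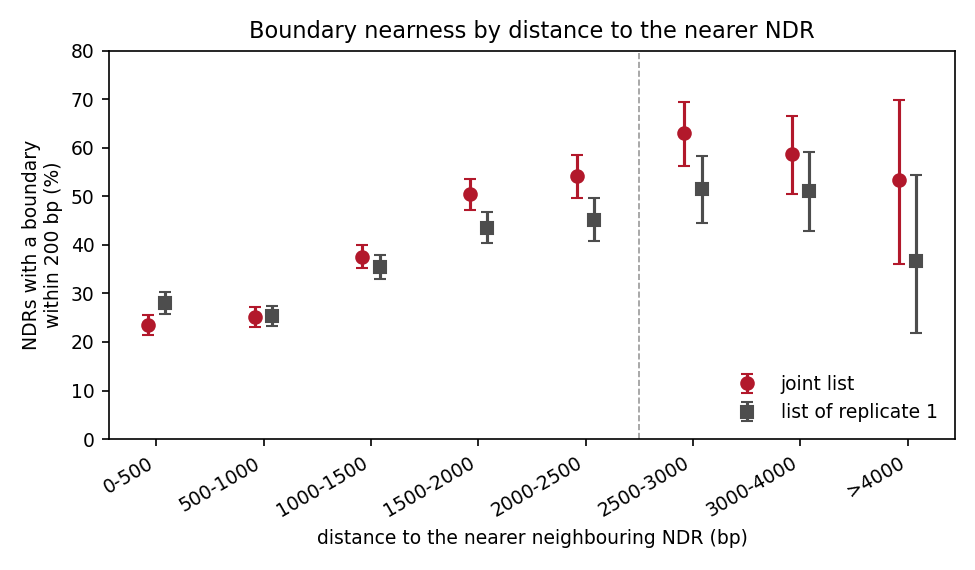
The share of NDRs with a boundary within 200 bp (vertical axis, percent) is plotted by the distance to the nearer neighbouring NDR (bp), for the joint list (circles) and the list of replicate 1 (squares), with 95% Wilson intervals. NDRs right of the dashed line are the isolated ones, where the joint list gives 53.3 to 63.1%.

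The difference was present in each kind of place. Between divergent genes, 93 of 119 isolated NDRs had a joint boundary (78.2%, 69.9 to 84.6), against 751 of 1486 others (50.5%, 48.0 to 53.1). Between tandem genes, 118 of 173 isolated NDRs had one (68.2%, 60.9 to 74.7), against 1169 of 2269 others (51.5%, 49.5 to 53.6). Between convergent genes the shares were 27.6% (8 of 29, 14.7 to 45.7) and 14.7% (99 of 675, 12.2 to 17.5), and inside genes 12.0% (6 of 50, 5.62 to 23.8) and 5.22% (99 of 1897, 4.30 to 6.31). For these last 2 kinds the isolated NDRs are few, and the intervals of isolated and other NDRs overlap. Of the 146 isolated NDRs with no joint boundary, 44 lay inside genes, 55 between tandem, 26 between divergent and 21 between convergent genes.

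Boundaries and spanning levels both come from wild-type Micro-C, and in both sets the share at a boundary was lowest in the highest quartile of level. In the quartiles of wild-type level over all NDRs, from lowest to highest, isolated NDRs had a joint boundary in 70.2% (33 of 47), 79.6% (82 of 103), 53.1% (60 of 113) and 46.3% (50 of 108). The other NDRs had one in 41.2%, 41.0%, 33.5% and 17.7%. The isolated NDRs were above the others in all 4 quartiles, with intervals that do not overlap. Isolated NDRs with a boundary had a median level of 85.1 CPM and those without one 105.0 CPM, while for the others these were 77.1 and 91.5 CPM.

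**Figure D3:**
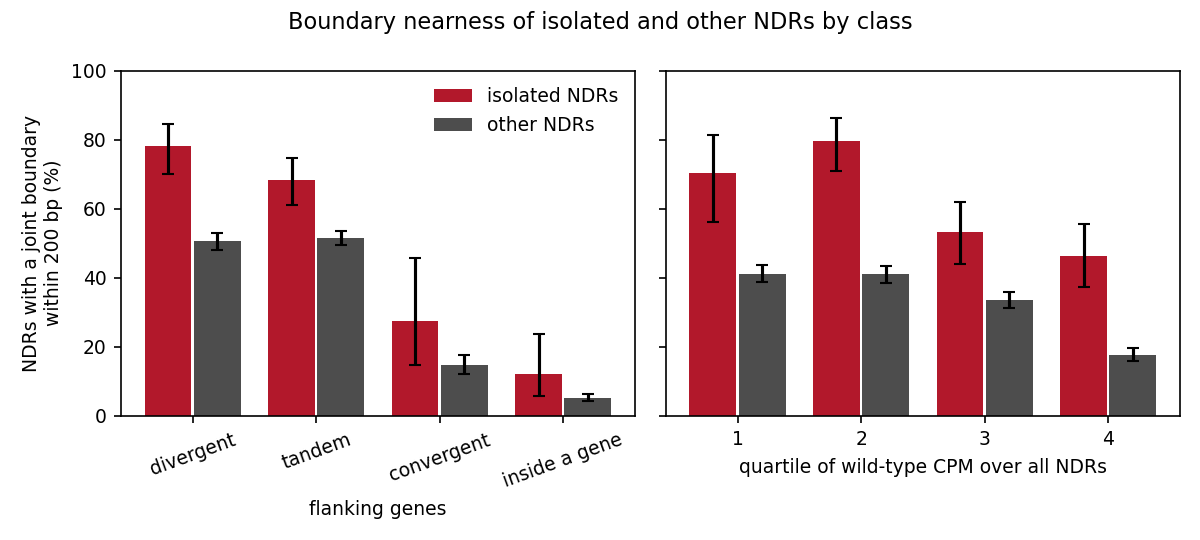
Bars give the share of isolated (red) and other (grey) NDRs with a joint boundary within 200 bp, in percent with 95% Wilson intervals, by the genes around the NDR (left) and by quartile of wild-type CPM over all NDRs, 1 being the lowest (right). Isolated NDRs stand at 78.2% and other NDRs at 50.5% between divergent genes, and at 46.3% and 17.7% in the highest quartile.

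The authors' strength score of these boundaries tracked the spanning level. Spearman's rho between the score and the mean wild-type log2 CPM was 0.80 over the 225 isolated NDRs at a boundary and 0.85 over the 2120 others, across NDRs that share libraries. The sources used here do not say what a high score means, and in these data it goes with more spanning pairs. The median score was 4.34 at isolated NDRs (quartiles 3.95 and 4.72) and 4.14 at the others (3.65 and 4.55). Within the highest level quartile the medians were 4.99 and 4.93. The lowest scores at isolated NDRs were 1.68 at RPL21A, 2.15 next to RPS0A and 2.60 inside YCR025C, and the highest were 6.17 before IMA4, an isomaltase gene, 5.38 before YPL277C and 5.38 between LSB5 and the glutaredoxin gene GRX1.

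Genes that start at isolated NDRs had higher deposited compaction scores in the pooled wild-type column. The authors' score is a log2 value normalised for gene length and level, and 1 column pools each group, so it has no replicate error. Its wild-type median was 0.13 over 294 genes over 750 bp that start at an isolated NDR (quartiles -0.10 and 0.34) and 0.02 over 3090 genes that start at other NDRs (-0.25 and 0.28). Among genes of 750 to 1500 bp the medians were 0.25 (103 genes) and 0.04 (1396 genes). They were 0.09 and 0.00 for 1500 to 3000 bp (151 and 1333 genes), and 0.05 and 0.02 above 3000 bp (40 and 361 genes). The median was higher for isolated NDRs in all 12 group columns, with the widest gap in rtt109d (0.03 against -0.13) and the narrowest in thiolutin (-0.01 against -0.05).

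In the MNase titration, the log2 change per NDR from low to high dose was slightly more negative at isolated than at other NDRs. The ratio of the isolated over the other median level was not lower at the high dose. Each dose has 4 columns, 1 per gel fraction of the digest, which are not replicates, and no test was made. The log2 CPM difference of 1X over 0.25X MNase, averaged over the fractions, had a median of -0.18 at isolated NDRs (quartiles -0.40 and 0.14) and -0.10 at the others (-0.41 and 0.22). It was below 0 at 64.4% of isolated NDRs and 58.3% of the others. Its median was -0.16 at NDRs with the nearer neighbour at 2000 to 2500 bp, which are not isolated. At isolated NDRs beyond 4000 bp it was -0.06. By fraction the medians at isolated and other NDRs were -0.10 and -0.01 in dimers, -0.07 and -0.01 in trimers to tetramers, and -0.07 and -0.01 in monomers. In the small fraction the order turned, with -0.02 at isolated and -0.11 at other NDRs. At isolated NDRs each fraction's median was smaller in size than the -0.18 of the average. In the small fraction 81 isolated NDRs stood at or below -1 and 30 at or above 1, against 1470 and 627 others. With column totals in place of TMM scaling the average was -0.28 at isolated and -0.20 at other NDRs. The log2 ratio of the median CPM of isolated over other NDRs averaged 0.05 at 0.25X and 0.06 at 1X. The dose 1X columns held only 59033 to 201754 spanning pairs, against 143610 to 517810 at 0.25X.

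The largest falls with MNase rested on few reads. The NDR before MIY3 had 2, 0, 5 and 10 reads at 1X in the small, monomer, dimer and longer fractions, against 10, 12, 33 and 35 at 0.25X, a mean log2 difference of -1.35. NDRs before TCB1 and VPS54 followed at -1.35 and -1.28, with 17 and 14 reads in all at 1X. The largest rises were at NDRs before the Ty1 frames YMR045C and YMR046C (0.84), inside the Ty1 frame YPR137C-B (0.82) and inside YNL034W (0.80). At YPR137C-B the dimer column had 593.1 CPM at 1X and 337.8 CPM at 0.25X.

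The control libraries differed from wild type at isolated NDRs. Without ligation only 6551 pairs spanned any NDR, 287 of 371 isolated NDRs had 0 reads, and 47 of the 345 reads at isolated NDRs lay at the 2 NDRs of the ribosomal DNA. The median without ligation was 0 CPM at other NDRs as well, and isolated NDRs, 371 of 6719, held 5.27% of these pairs. Without crosslinking (210503 pairs) the median was 68.0 CPM at isolated and 76.6 CPM at other NDRs. The log2 ratio of -0.17 equals that of WT_30C replicate 17, and lies outside the range of the other 15 wild-type replicates, 0.08 to 0.19. In both of these shallow libraries the medians are 8 reads at isolated and 9 reads at other NDRs. The ratio and the match therefore rest on a step of a single read.

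Calls in the 10 replicated comparisons with WT_30C were made with edgeR's quasi-likelihood test at an adjusted p under 0.05 over all 6719 NDRs. No isolated NDR was called in more than 2 comparisons: 321 of 371 (86.5%) had no call, 48 had 1 and 2 had 2, while 5586 of 6348 others (88.0%) had none. Over all 6719 NDRs, 5907 had no call, 699 had 1 and 104 had 2, so more than 2 calls were rare at any NDR. Of the 50 isolated NDRs with a call, 32 had a joint boundary within 200 bp, near the share among all isolated NDRs (225 of 371, 60.6%). On chromosome I lie 18 of the 50, and there 94 of all 100 NDRs were called in ssu72-2. Medians of the log2 fold change at isolated NDRs stayed close to those over all NDRs in every comparison. They were -0.03 against -0.01 in diamide, -0.06 against 0.01 in thiolutin, -0.07 against -0.02 in med1d, -0.04 against 0.00 in rtt109d, -0.02 against -0.02 in ssu72-2, and -0.07 against -0.03 in H4d4-14. All comparisons share the same wild-type libraries. The calls depend on the scaling: with all pairs listed in the distance tables as library size, none was called in diamide, thiolutin, rtt109d or ssu72-2, and 317 were called in H4d4-14. Shares over all NDRs are not given for this or the other alternative fits below. Counts from them are not read as a result about isolated NDRs.

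In diamide, 3 isolated NDRs rose and 7 fell. Over all NDRs 2.98% rose and 1.8% fell, so that the isolated share was near or below the background for rises (3 of 371) and near it for falls (7 of 371). With the middle number of the column names as a block, a number that no label explains and an alternative chosen after seeing the data, 3 isolated NDRs were called, and with replicate numbers as a block 5 were. Without diamide replicate 1 the count was 2, and without replicate 2 it was 0.

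The 2 falls with the smallest adjusted p in diamide were at FIT genes, which encode cell wall mannoproteins that retain siderophore-bound iron. The NDR at 1059117 of chromosome XV before FIT2 had 47.2 and 49.6 CPM in diamide, against a lowest value of 69.0, a median of 96.6 and a highest of 145.6 CPM in WT_30C. Both diamide replicates lay below all wild-type replicates (log2 fold change -1.08 ± 0.22 SE, edgeR adjusted p 0.000929). The NDR at 1502753 of chromosome IV, nearest to FIT1, had 47.2 and 55.0 CPM in diamide and 69.6, 91.6 and 127.1 CPM (lowest, median, highest) in WT_30C. It too did not overlap with wild type (-0.81 ± 0.18, edgeR adjusted p 0.00272).

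Falls in diamide also included the promoter shared by KAR2, the chaperone BiP of the endoplasmic reticulum, and TAD2, a tRNA adenosine deaminase gene. This NDR, at 381168 of chromosome X, had 37.8 and 55.0 CPM in diamide, against 63.2, 88.7 and 115.7 CPM (lowest, median, highest) in WT_30C (-0.86 ± 0.21, edgeR adjusted p 0.00729), with no overlap. Its isolated neighbour 2544 bp away, before SNX4, a sorting nexin gene, was also called (-0.97 ± 0.28, edgeR adjusted p 0.0258), and was named after its value was seen. The NDR at 19708 of chromosome VI, nearest to the amino acid permease gene AGP3, had 44.9 and 55.0 CPM in diamide and 75.0, 90.5 and 155.3 CPM in WT_30C, with no overlap (-0.86 ± 0.22, edgeR adjusted p 0.0102).

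Rises in diamide were led by the NDR with the lowest wild-type level. The RPL21A NDR had 54.3 and 67.0 CPM in diamide, against 0, 26.5 and 41.7 CPM (lowest, median, highest) in WT_30C. These are 23 and 50 reads, and both values lay above all wild-type replicates (log2 fold change 1.20 ± 0.27 SE, edgeR adjusted p 0.00238). It was also called in ssu72-2 (0.91 ± 0.25, edgeR adjusted p 0.0163). The NDR at 398404 of chromosome II before RPG1, a translation initiation factor gene, had 141.6 and 139.4 CPM against 77.1, 92.0 and 112.2 CPM (0.58 ± 0.15, edgeR adjusted p 0.00855). The NDR at 68542 of chromosome III before HIS4, a histidine biosynthesis gene, had 155.8 and 128.7 CPM in diamide and 80.9, 97.1 and 124.8 CPM in WT_30C (0.49 ± 0.14, edgeR adjusted p 0.0291). At both of these NDRs the diamide values lay above all wild-type replicates. The HIS4 call was lost with DESeq2 (adjusted p 0.0555), with replicate numbers as a block (edgeR adjusted p 0.19) and without either diamide replicate. The RPG1 and AGP3 calls were also lost with that block and without either replicate. Calls next to FIT1 and at KAR2 and TAD2 were lost without either replicate, and those at FIT2 and RPL21A without replicate 2.

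In thiolutin, 6 isolated NDRs rose and 2 fell, against backgrounds of 2.46% and 1.16% of all NDRs, which put the isolated share below the background in both directions. With column-name numbers as a block none was called, and without thiolutin replicate 2 none was called, while without replicate 1 there were 18. The NDR at 222779 of chromosome VIII before GIC1, a Cdc42 effector gene, had 121.4 and 167.5 CPM in thiolutin, against 68.2, 81.0 and 100.5 CPM (lowest, median, highest) in WT_30C. Neither value overlapped with wild type (0.78 ± 0.17, edgeR adjusted p 0.0024).

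Other rises in thiolutin were of like size. The promoter shared by LYS4, a lysine biosynthesis gene, and RTN1, at 930764 of chromosome IV, had 102.5 and 134.0 CPM in thiolutin and 39.6, 66.5 and 103.6 CPM in WT_30C, where 1 thiolutin value fell within the wild-type range (0.77 ± 0.20, edgeR adjusted p 0.0158). The NDR at 504448 of chromosome VIII nearest to RPS4B had 86.7 and 113.0 CPM against 33.5, 52.3 and 79.4 CPM (0.79 ± 0.21, edgeR adjusted p 0.0162). The promoter shared by TAT2, a tryptophan permease gene, and the exosome gene DIS3, at 285762 of chromosome XV, had 66.2 and 92.1 CPM against 18.4, 44.3 and 57.8 CPM (0.79 ± 0.22, edgeR adjusted p 0.0237). In both of these the thiolutin values lay above all wild-type replicates.

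The 2 falls in thiolutin were at divergent promoters. The KAR2 and TAD2 NDR had 48.9 and 50.2 CPM in thiolutin (31 and 12 reads), below the lowest wild-type value of 63.2 CPM (-0.83 ± 0.24, edgeR adjusted p 0.0298). It was one of the 2 isolated NDRs called in 2 comparisons. The NDR at 231185 of chromosome X between MEF2 and GSM1 had 55.2 and 25.1 CPM in thiolutin, within the wild-type range of 23.1 to 108.7 CPM (-0.84 ± 0.25, edgeR adjusted p 0.0446). With DESeq2 neither fall was called (adjusted p 0.0566 at KAR2 and TAD2, and 0.0712 at MEF2 and GSM1).

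**Figure D4:**
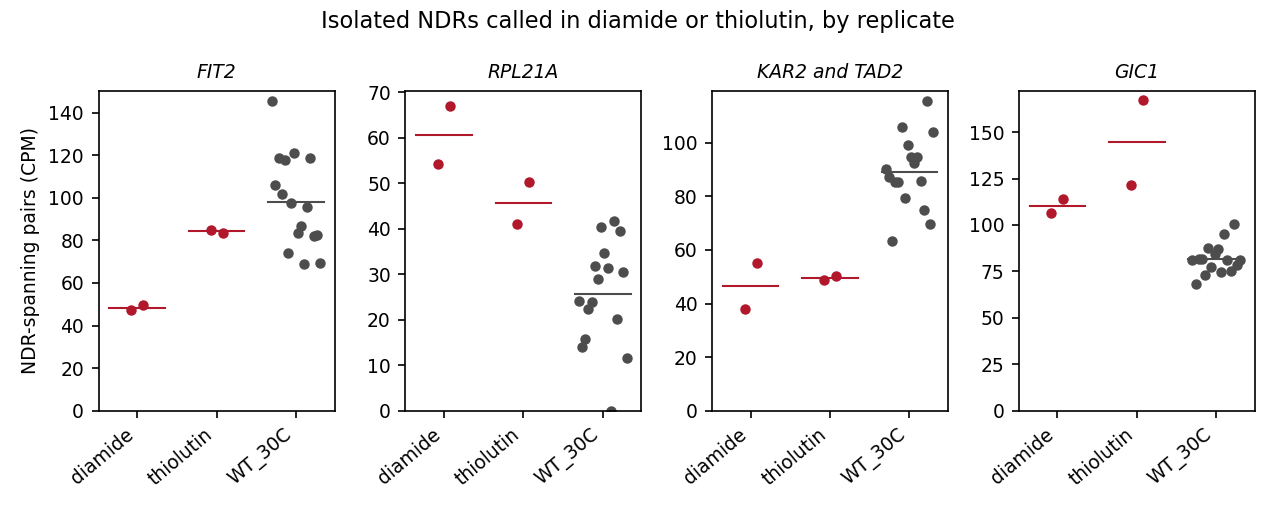
Points are single replicates of 4 isolated NDRs, named by their genes, and lines are group means, with NDR-spanning pairs in CPM on the vertical axis from 0. Diamide values at FIT2 (47.2 and 49.6 CPM) lie below all 16 WT_30C replicates, those at RPL21A (54.3 and 67.0 CPM) above them, and both treatments lie below wild type at KAR2 and TAD2.

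In ssu72-2, 26 isolated NDRs rose and 4 fell, and all 18 isolated NDRs of chromosome I were among those that rose. Over all NDRs 3.45% rose and 1.04% fell. On chromosome I, 76 of the 82 other NDRs rose as well, with a median log2 fold change of 1.08 against 1.12 at the isolated ones (0.74 to 1.32). Relative to the wild-type mean, the median over the 18 was 1.31, 1.03 and 1.07 in ssu72-2 replicates 1, 2 and 3, while over the 16 WT_30C replicates it ran from -0.14 to 0.25. The 3 mutant values lay above all wild-type ones. A change in the number of copies of chromosome I and a change in contacts cannot be told apart here.

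With chromosome I left out, an alternative chosen after seeing the data, 8 of 353 isolated NDRs rose, against a background of 2.08%, and 4 fell, against 1.06%. The isolated share was then near the background in both directions. Of the 8 that rose, 6 lay within 30 kb of the first or last NDR of their chromosome, where 27 of the 353 lie, a feature noticed after the values were seen. They are next to YEL075C, FLO5, YHR212W-A, FEX1, HSP33 and YPL277C, and FLO5 belongs to a family of near-identical flocculin genes with FLO1 and FLO9 of chromosome I, so its reads are uncertain. Against the single BY4741 column at 32 °C, the mutant's own temperature, 14 isolated NDRs were called, with no share over all NDRs to set beside them.

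Named examples on chromosome I were the NDRs at 6454 (nearest to SEO1, a permease gene), 176567 (nearest to PAU7), 124723 (before TPD3, a regulatory subunit of protein phosphatase 2A) and 36462 (before ECM1). At SEO1, ssu72-2 replicates 1, 2 and 3 had 242.5, 206.7 and 234.3 CPM, against 66.4, 95.1 and 198.5 CPM (lowest, median, highest) in WT_30C (1.24 ± 0.14, edgeR adjusted p 2.22e-10). At TPD3 they had 251.0, 217.7 and 197.8 CPM, against 51.8, 104.5 and 134.4 CPM (1.12 ± 0.13, edgeR adjusted p 2.95e-10). The other 2 changed by 1.13 ± 0.13 at PAU7 and 1.28 ± 0.15 at ECM1. At none of these 4 did the mutant values overlap with wild type.

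**Figure D5:**
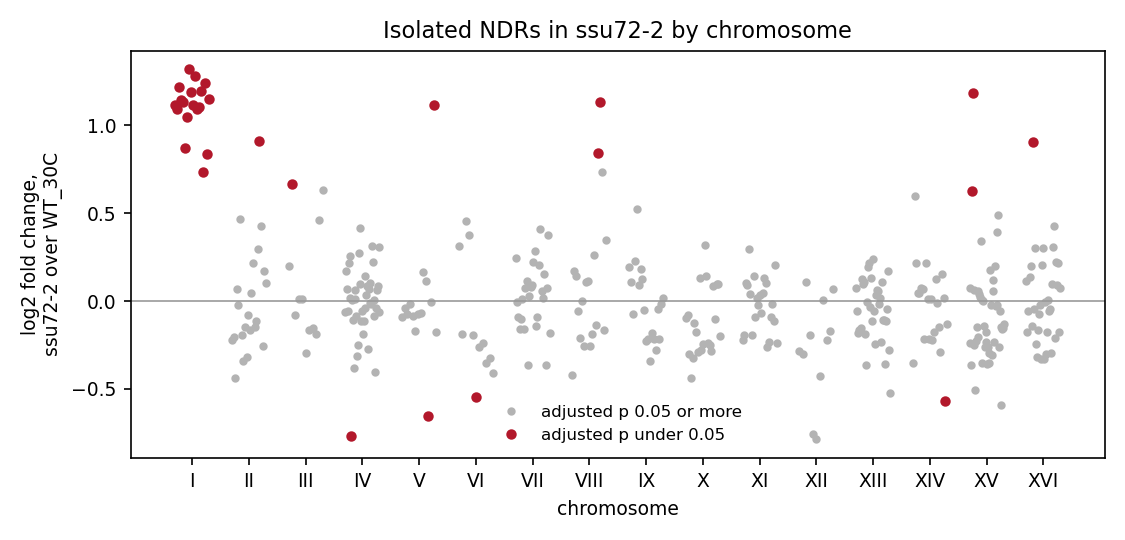
Each point is 1 of the 371 isolated NDRs, with its edgeR log2 fold change of ssu72-2 over WT_30C on the vertical axis, by chromosome, and red points have an adjusted p under 0.05. The 18 NDRs of chromosome I lie between 0.74 and 1.32, apart from most others.

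The 4 isolated NDRs that fell in ssu72-2 lie on 4 chromosomes, and none of the 4 was called against BY4741 at 32 °C (edgeR adjusted p from 0.203 to 0.824). The NDR at 1153769 of chromosome IV before YDR341C had 84.5, 48.4 and 73.0 CPM in replicates 1, 2 and 3, below the lowest wild-type value of 88.3 CPM (median 117.3, highest 144.5 CPM), a change of -0.77 ± 0.17 (edgeR adjusted p 0.0011). The NDR at 517717 of chromosome V before BCK2, a G1 cyclin activator gene, had 68.8, 66.0 and 63.9 CPM, just within the wild-type range of 62.4 to 150.3 CPM (-0.66 ± 0.16, edgeR adjusted p 0.00727). The most isolated of the 4, between MRX6 and MON2, had 76.0, 94.6 and 94.3 CPM against 97.0 to 164.0 CPM and did not overlap (-0.57 ± 0.16, edgeR adjusted p 0.0266). The NDR at 199439 of chromosome VI before PES4 had 67.6, 72.6 and 97.4 CPM, within 51.8 to 150.3 CPM (-0.54 ± 0.16, edgeR adjusted p 0.0369). The PES4 call was also lost with DESeq2 (adjusted p 0.066) and with replicate numbers as a block (edgeR adjusted p 0.135). The BCK2 call was lost with that block too, and without ssu72-2 replicate 1. The YDR341C call was lost without replicate 2, and the call at MRX6 and MON2 without replicate 1.

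In rtt109d, which lacks the histone H3 K56 acetyltransferase, 2 isolated NDRs rose, both in the ribosomal DNA, and 1 fell, against backgrounds of 0.551% and 0.268% of all NDRs. The shares are near the background. Both rises lie in the same repeated array, where the reads assigned to each NDR are uncertain, so they are not independent. With column-name numbers as a block 6 were called, with replicate numbers as a block 0, without rtt109d replicate 1 there were 6 and without replicate 3 there were 0. The NDR next to YLR154C-G had 102600, 191700 and 236500 CPM in rtt109d replicates 1, 2 and 3, against 22780, 45380 and 84250 CPM (lowest, median, highest) in WT_30C, with no overlap (1.85 ± 0.33, edgeR adjusted p 0.000227). The one next to TAR1 had 93490, 171400 and 207700 CPM, also above all wild-type values (1.82 ± 0.32, edgeR adjusted p 0.000256). The 2 together held 15.9 to 21.5% of the spanning pairs of an rtt109d library, and 5.52 to 13.2% of those of a WT_30C library.

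The number of ribosomal DNA copies and the contacts per copy cannot be told apart from these counts. The fall in rtt109d was at 173120 of chromosome VIII, between ERC1 and the helicase gene RRM3, with 70.0, 66.9 and 72.6 CPM, below the wild-type range of 80.9 to 173.9 CPM (-0.85 ± 0.20, edgeR adjusted p 0.017). This call was lost without any 1 of the 3 rtt109d replicates.

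In H4d4-14, 1 isolated NDR rose and 0 fell, against 0.0298% and 0.0% of all NDRs. It lies at 192034 of chromosome XIII before RRN11, which encodes a subunit of the RNA polymerase I core factor, and had 311.6 and 440.9 CPM in H4d4-14, against 70.0, 140.0 and 194.5 CPM (lowest, median, highest) in WT_30C. Both values lay above all wild-type replicates (1.41 ± 0.25, edgeR adjusted p 0.00288). Its direction turned when library size was taken from all listed pairs, to -0.39 (edgeR adjusted p 0.524). The only other NDR called in this comparison was its direct neighbour at 194810, 2776 bp away (1.39 ± 0.26, edgeR adjusted p 0.00394). The single library of the plasmid strain H4-WT had 122.6 CPM at the RRN11 NDR, and the library without crosslinking had 501.9 CPM. Without either H4d4-14 replicate the call was lost, and with column-name numbers as a block 27 isolated NDRs were called. For those 27 no share over all NDRs is given.

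No isolated NDR was called with edgeR in med1d, H4R23A, rnh201d or the libraries labelled rpd3d and top1d. The backgrounds were 0.104% up and 0.0% down in med1d, 0.0% up and 0.0298% down in H4R23A, 0.0% up and 0.0446% down in rnh201d, and 0.0% in both directions in rpd3d and top1d. At an unadjusted edgeR p under 0.05, which a share of 0.05 would pass with no change, 24 of 371 isolated NDRs passed in med1d. The counts were 24 in H4R23A, 7 in rnh201d, 8 in rpd3d and 8 in top1d. Shares over all NDRs at this threshold are not given, so these counts are not read as a result about isolated NDRs. DESeq2 called 2 in rnh201d and 0 in the other 4. With column-name numbers as a block 17 were called in med1d, 2 in rnh201d and 0 in the other 3. No background over all NDRs is given for these alternative calls.

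At 37 °C each group is a single column, so that no test was possible and counts past 2-fold are descriptions. In sth1-2, a mutant of the catalytic subunit of RSC, 1 isolated NDR was past 2-fold against BY4741 at 37 °C, against 0.432% of all NDRs: the one at 96498 of chromosome XV assigned to MCH4, with a log2 difference of -1.05. In rsc8-21 (0.0298% of all NDRs), scc2-4 (0.104%) and rgr1-100 (0.0%) no isolated NDR was past 2-fold, and neither was any in BY4741 at 37 °C against 30 °C (0.0446%). The median differences at isolated and other NDRs were -0.05 and 0.01 in sth1-2, -0.01 and 0.01 in rsc8-21, -0.01 and -0.02 in scc2-4, and -0.02 and -0.01 in rgr1-100. The quartiles of the isolated NDRs in sth1-2 were -0.21 and 0.12, wider than these shifts.

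In W303, a strain of another background, 1 isolated NDR was past 2-fold against WT_30C, where 0.685% of all NDRs were. It lies at 919514 of chromosome XIII, is assigned to SNO4, a member of a subtelomeric gene family, and had a log2 difference of -1.40.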

How the data were processed

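The authors deposited counts of read pairs spanning each NDR, 1 column per library or repeat run, per the file headers. Upstream, CASAVA 1.8.2, Bowtie2 and the sacCer3 build are named, per the submitters' processing notes. The authors' boundary lists carry a strength score per boundary, per the file headers. Their pooled gene tables hold a signal per gene for each group and a normalised log2 compaction score, as deposited by the authors. In the NDR table, 10 columns were not tied to a sample and were not used.

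Counts of repeat runs were summed per replicate. The members and lists were chosen with earlier results of these data known. edgeR 4.0.16 (limma 3.58.1, R 4.3.3) fitted a quasi-likelihood model with TMM scaling over 6719 NDRs and 51 libraries, all groups sharing the dispersion (0.0296), with no block. Each group was tested against WT_30C with Benjamini-Hochberg adjustment, and calls are at 0.05. DESeq2 1.42.0, library size, blocks, single-group fits and left-out replicates were alternatives. The fit was tested on simulated data. MNase columns stayed outside the fit, and since each dose has 4 gel fractions where 1 column was planned for, log2 CPM (prior count 2) was averaged over fractions. Gene names and positions came from a RefSeq table. NDRs named are the 8 farthest, 5 highest and 5 lowest in level, up to 4 called per direction and comparison, 3 on each side of the distance limit, 5 with most calls, and 3 at each extreme of MNase difference (50 or more reads) and of strength.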

Additional observations from a re-analysis of the deposited data

How the results depend on the processing

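With all listed pairs as library size, 0 isolated NDRs were called in diamide, thiolutin, rtt109d and ssu72-2, and 317 in H4d4-14, where RRN11 turned to -0.39 (edgeR adjusted p 0.524). This alternative was not run for rnh201d. With the replicate block 5 were called in diamide, 0 in rtt109d and 2 in H4d4-14. Correlations of same-numbered libraries ran from -0.489 to 0.544. They were not compared with those of differently numbered libraries, so they cannot settle whether the numbers pair the samples. With the column-name number as a block, chosen after seeing the data, 3 were called in diamide, 0 in thiolutin, 17 in med1d, 6 in rtt109d, 27 in H4d4-14 and 2 in rnh201d. DESeq2 called 2 in rnh201d. Fitted with WT_30C alone, thiolutin had 5. Against WT_32C ssu72-2 had 14, and with chromosome I left out, also chosen after seeing the data, 12. Leaving out 1 replicate gave 0 to 12 calls in diamide, 0 to 18 in thiolutin, 0 to 6 in rtt109d and 0 to 1 in H4d4-14. The boundary share was 52.8% within 100 bp, and 50.1%, 50.7%, 47.7% and 43.9% with the lists of replicates 1 to 4. The MNase difference was -0.28 with column totals. Over 244 settings of 25 named results, 152 kept direction and call, 91 kept only direction and 1 reversed. The cause of these changes was not tested, and shares of all NDRs called under these alternatives are not given. Low counts limit the shallow libraries and the MNase columns.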
